A study of Mus musculus with 30 samples.

Results

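Tibialis anterior muscle of mice given dexamethasone, a synthetic glucocorticoid, was compared with its own control muscle. The comparison comprises the 4 libraries labelled dexamethasone and the 4 labelled as controls for dexamethasone, 8 of the 30 libraries of the series, and it covers all genes. Every library came from male C57BL/6J mice, and the 8 differ by label only in the treatment; the labels state no dose, route, duration, vehicle, age or time of day at sampling. The tibialis anterior is a mostly fast-twitch muscle of the shin. The labels call the samples biological replicates but do not say that each is a separate mouse, so p-values measure the spread between these libraries. The series also holds muscle of mice with LLC cancer (4 libraries, with 4 controls of their own), which is used at the end as a second wasting condition. The title of the series asks how molecular changes in muscle wasting depend on the stimulus.

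Glucocorticoids bind the glucocorticoid receptor, encoded by Nr3c1, which is held in the cytosol by heat shock protein chaperones, enters the nucleus and binds a palindromic response element in DNA. It activates genes such as Fkbp5 and Per1 and represses many inflammatory genes. In skeletal muscle prolonged exposure causes atrophy, above all of fast fibres, a process linked to the ubiquitin ligases Fbxo32 (atrogin-1) and Trim63 (MuRF1), to FoxO transcription factors and to weaker insulin and IGF-1 signalling.

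Genes encoded by the mitochondrial genome took a smaller share of the RNA after dexamethasone. Their share of the deposited TPM (a transcript abundance: reads per gene corrected for gene length and scaled to 1000000 per library) was 41.5, 34.0, 39.2 and 37.0% in dexamethasone 1 to 4 and 50.7, 50.2, 47.7 and 46.3% in control 1 to 4. The groups did not overlap, and the means were 37.9 ± 3.17% and 48.7 ± 2.09% (SD, n = 4 each), a difference of −10.8 percentage points (exact permutation test over libraries, two-sided, p = 0.0286, the smallest that 4 against 4 allows). A smaller share of these genes raises every other gene's TPM in the same library. Levels are therefore given as nuclear TPM: each library was rescaled so that its genes outside the mitochondrial genome sum to 1000000, and mitochondrial genes were scaled by the same factor. Counts on the deposited scale and after median-of-ratios scaling are printed beside a list's count where they move it by over 1.5 times, and their adjusted p beside a named gene where it ends the call.

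**Figure D1:**
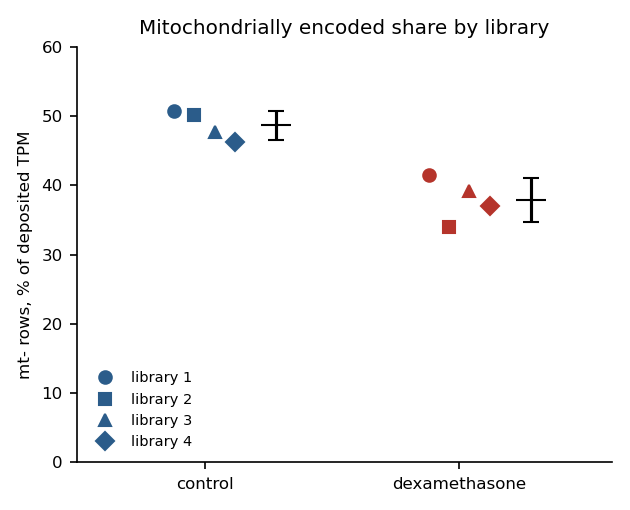
Share of deposited TPM taken by the mitochondrially encoded genes (vertical axis, percent) in each library of the control (blue) and dexamethasone (red) groups; marker shapes give the library number, and black bars give mean ± SD (n = 4). The 4 dexamethasone libraries lie between 34.0 and 41.5%, below the 4 controls at 46.3 to 50.7%.

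The libraries carried the fast-muscle profile that the tissue label calls for. The actin Acta1 stood at 53450 ± 6128 nuclear TPM after dexamethasone and 54110 ± 3085 in the control, the fast troponin Tnnt3 at 29660 and 30680, and the fast myosin Myh4 at 19030 and 18840. Depth was read from the low values: 1 read in a gene 2 kb long was worth 0.0171 to 0.0269 TPM in the 8 libraries, so the floor of 3 reads lay at 0.0887 to 0.122 nuclear TPM. This floor covers counting error only. The first principal component of the 8 libraries (47.5% of the variance) separated treated from control libraries, and the second (27.8%) spread the treated libraries, from dexamethasone 1 at 30.97 to dexamethasone 2 at −29.2.

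The test covered 12974 genes, and 720 were called higher after dexamethasone (5.55%) and 388 lower (2.99%) at a Benjamini-Hochberg adjusted p under 0.05 from limma; adjusted p values below come from this fit unless stated. The median gene was 0.10 higher on the log2 scale. On the deposited scale 4290 genes (35.9% of 11944) were called higher and 180 (1.51%) lower, with a median of 0.33. After median-of-ratios scaling 561 genes (4.33% of 12971) were called higher and 640 (4.93%) lower, with a median of 0.01. No gene called on the nuclear scale was called in the opposite direction on either other scale. The counts moved when 1 library was left out: without dexamethasone 1 the fit called 1941 genes higher and 542 lower, and without control 1, 2 or 4 it called 362, 296 and 288 higher and 204, 211 and 226 lower, and without dexamethasone 3 it called 452 and 306. A core of 230 higher and 134 lower genes was called in all 8 fits that leave out 1 library and under both other scalings. The 8 values of 2283 genes (17.6%) did not overlap between the groups. Counts for the gene lists below stand against these shares of all genes on the same scale. Changes are log2 differences of nuclear TPM plus a pseudocount of 1, given with their standard error (SE), and they understate the change of low genes.

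Genes known to respond to the glucocorticoid receptor rose in part. Of 30 such genes 10 rose and 0 fell (against 5.55% and 2.99% of all genes), with a median of 0.21 against 0.10 over all genes; without 1 of control 1, 2 or 4 the count was 6, and without dexamethasone 1 it was 13. Pnmt, the enzyme that makes adrenaline from noradrenaline and a long-known glucocorticoid target of the adrenal medulla, stood at 62.4, 110.0, 67.2 and 91.5 nuclear TPM in dexamethasone 1 to 4 and at 3.37, 2.97, 3.37 and 2.58 in control 1 to 4. Its groups lay far apart, with a log2 change of 4.33 (SE 0.17, adjusted p = 9.07e-07). Fkbp5, a co-chaperone that feeds back on the receptor, was at 16.9, 43.5, 27.5 and 29.3 against 10.8, 12.8, 11.6 and 12.1. Every treated value exceeded every control value, though dexamethasone 1 was close to the controls (log2 change 1.17, SE 0.22, adjusted p = 0.0119). The cell cycle inhibitor Cdkn1a rose from 49 ± 12.9 to 162 ± 48.6 nuclear TPM (1.70, adjusted p = 0.00257) and Anxa1, a mediator of the anti-inflammatory action of glucocorticoids, by 1.22 (adjusted p = 0.014).

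Metallothioneins, small zinc-binding proteins whose genes respond to metal and to glucocorticoids, were among the most raised of these genes. Mt2 was at 506, 198, 449 and 634 nuclear TPM in dexamethasone 1 to 4 and at 67.7, 94.6, 67.1 and 40.04 in control 1 to 4 (2.65, SE 0.34, adjusted p = 0.0019). Mt1 was at 365, 206, 392 and 644 against 83.6, 97.2, 89 and 76 (2.10, SE 0.27, adjusted p = 0.0019). Both were lowest among treated libraries in dexamethasone 2 and highest in dexamethasone 4, with no overlap with the controls. The 3 called members (6 without dexamethasone 1, 8 on the deposited scale) among 14 tested genes of zinc binding and transport were Mt1, Mt2 and Mt3; Mt3 rose from 18.3 ± 5.03 to 40.01 ± 15 and lost its call without dexamethasone 1 or 3 or control 2, 3 or 4 (adjusted p from 0.0546 to 0.115) and after median-of-ratios scaling (adjusted p = 0.0837). How reads were divided among these similar genes is not stated.

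Other classic targets of the receptor did not pass the test. Tsc22d3, which encodes the glucocorticoid-induced leucine zipper, was at 85.2, 119.9, 79.3 and 139 nuclear TPM after dexamethasone and at 74.6, 114, 101 and 117 in the control (0.04, adjusted p = 0.916). The clock gene Per1 was at 11.9, 40.4, 11.7 and 29.4 against 8.39, 28.7, 27.8 and 36 (−0.13, adjusted p = 0.892), and the regulator of amino acid breakdown Klf15 at 23.9, 42.2, 21 and 38.1 against 28.4, 35.2, 31.2 and 31 (−0.06, adjusted p = 0.883). In each of these 3 genes dexamethasone 2 and 4 were higher than dexamethasone 1 and 3, and the groups overlapped. Pdk4, a brake on glucose oxidation, split the treated libraries the same way (205, 491, 128 and 459.8 against 453, 284, 283 and 558, adjusted p = 0.556). Ddit4, an inhibitor of mTOR, was at 15.9, 19.2, 20.5 and 65.5 against 19.8, 36.7, 28.3 and 28.2, with only dexamethasone 4 above the controls (−0.11, adjusted p = 0.879). Glutamine synthetase, Glul, passed narrowly (139.6 ± 20.3 to 199.8 ± 32.5, 0.51, adjusted p = 0.0491) and lost its call without dexamethasone 2, 3 or 4 or control 1, 2, 3 or 4 (adjusted p from 0.067 to 0.13) and after median-of-ratios scaling (adjusted p = 0.0731). The receptor itself, Nr3c1, was at 39.8 ± 7.66 and 40.5 ± 3.03 nuclear TPM (−0.04, SE 0.14, adjusted p = 0.883). Of the 13 genes tested for the receptor, its chaperones and the enzymes of its ligand, Hsp90ab1, the chaperone HSP90 beta, was the only 1 called on the nuclear scale (897 ± 46.8 to 1302 ± 69.98, 0.54, adjusted p = 0.00648). The deposited scale called 6 higher, and median-of-ratios scaling called 1 higher and 1 lower.

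The sequences before the start sites of these genes were searched for the receptor's response element, because it is the element through which the hormone acts on DNA. The full palindrome (AGAACA and TGTTCT with 3 free bases between them) was found in 0 of 698 windows of called-higher genes, 0 of 326 of called-lower genes and 1 of 12508 of all genes tested. A looser form (GNACA and TGTNC with 3 free bases between them, a pattern that contains the full form) was found in 0.430% of windows of called-higher genes, 0.613% of called-lower genes, 0.344% of all genes tested and 0.475% of all 32851 windows. The windows run from 250 bases before to 50 bases after a start site, both strands were searched, and a match describes letters, not a site in use. Among the named genes Mt1, Serpina3n, Trim63, Mterf2 and Gnmt held the looser form. The 250 bases before the start are printed 5′ to 3′ from RefSeq (GRCm38.p6, the assembly known as mm10) for 3 of them, with the match in capitals. The printed stretch of Mt1 lies at chr8:94178839-94179088 on the plus strand. That of Serpina3n, an acute-phase protease inhibitor described below, lies at chr12:104406458-104406707 on the plus strand. For Trim63 it lies at chr4:134314870-134315119 on the plus strand.
Mt1: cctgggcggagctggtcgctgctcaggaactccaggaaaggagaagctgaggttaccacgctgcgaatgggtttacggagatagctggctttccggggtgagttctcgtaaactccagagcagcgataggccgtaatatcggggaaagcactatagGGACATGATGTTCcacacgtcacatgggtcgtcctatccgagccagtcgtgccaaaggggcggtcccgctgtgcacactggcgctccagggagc
Serpina3n: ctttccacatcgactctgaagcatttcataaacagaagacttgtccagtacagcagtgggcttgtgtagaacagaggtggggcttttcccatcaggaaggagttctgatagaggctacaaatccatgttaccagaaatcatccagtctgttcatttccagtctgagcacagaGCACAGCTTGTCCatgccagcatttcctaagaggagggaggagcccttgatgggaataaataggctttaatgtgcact
Trim63: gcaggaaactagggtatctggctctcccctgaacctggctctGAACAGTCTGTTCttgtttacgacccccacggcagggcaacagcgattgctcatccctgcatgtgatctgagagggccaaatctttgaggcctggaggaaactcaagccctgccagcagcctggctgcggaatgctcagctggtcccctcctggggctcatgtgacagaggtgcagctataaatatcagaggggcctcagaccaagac
The matches begin 94, 78 and 208 bases before the start. In the Trim63 window the FoxO motif TGTTTAC begins 194 bases before the start, with 1 base between it and the match; that motif was in 2.60% of windows of tested genes. In Gnmt the looser form, GGACAGCGTGTAC, begins at base 20 of the transcript. The metal response core TGCACNC was in 12.03% of windows of called-higher genes and 12.8% of all genes tested, and the Mt1 and Mt2 windows each held 2. Its other form, TGCGCNC, was in 17.6% and 25.85% of the same sets, with 1 match in the Mt1 window and 2 in that of Mt2.

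Ubiquitin ligases and other genes named for muscle atrophy were not called. Of 25 tested, limma called 0 higher and 0 lower, 2 were higher and 0 lower at an unadjusted p under 0.05, 2 were called higher without dexamethasone 1, and the list median of 0.10 equalled that of all genes. On the deposited scale 9 of the 25 were called higher, where 35.9% of all genes were, and after median-of-ratios scaling 0 were. Fbxo32 (chr15:58175879-58214932 in mm10) was at 159, 287, 150.0 and 148 nuclear TPM in dexamethasone 1 to 4 and at 123, 146, 117 and 97.2 in control 1 to 4. The groups did not overlap, but dexamethasone 2 stood alone and the other 3 treated libraries lay close to the highest control (0.57, SE 0.21, adjusted p = 0.128; deposited scale 0.0188). Trim63 (chr4:134315120-134329629) was at 273, 383, 223 and 578 against 188, 267, 214 and 195, with 1 treated library inside the control range (0.67, SE 0.25, adjusted p = 0.139; deposited scale 0.024). Myostatin, Mstn, the secreted inhibitor of muscle growth, was at 31.1 ± 3.68 against 27.4 ± 4.73 (adjusted p = 0.454; deposited scale 0.0405).

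Among 32 genes of FoxO, insulin, IGF and mTOR signalling 4 were called higher and 0 lower, against 5.55% and 2.99% of all genes. The higher count was 1 without dexamethasone 3 or control 1, 2 or 4 and 7 without dexamethasone 1. On the deposited scale 11 were higher, where 35.9% of all genes were, and after median-of-ratios scaling 1 was higher and 1 lower. Eif4ebp1, the repressor of cap-dependent translation that mTOR phosphorylates, was at 216, 198, 178 and 185 nuclear TPM against 85, 94.7, 102 and 93.2. Treated and control values were tight and far apart (1.05, SE 0.10, adjusted p = 0.000316). The growth factor Igf2 and the insulin-activated kinases Akt1 and Akt2 were called by smaller margins. Igf2 (0.86, with groups that overlap) lost its call without dexamethasone 2 or 3 or control 1, 2 or 4 (adjusted p from 0.0722 to 0.132) and after median-of-ratios scaling (adjusted p = 0.0624). Akt1 (0.39) lost it without dexamethasone 3 or 4 or control 1, 2, 3 or 4 (adjusted p from 0.0531 to 0.133) and after median-of-ratios scaling (adjusted p = 0.182). Akt2 (0.34) lost it without dexamethasone 2, 3 or 4 or control 1, 2, 3 or 4 (adjusted p from 0.0598 to 0.163) and after median-of-ratios scaling (adjusted p = 0.164). Igf1, the growth factor itself, was at 10.7, 10.8, 22 and 10.4 against 18, 10.8, 18.3 and 11.7 (adjusted p = 0.766). Of 27 genes of myostatin, activin and SMAD signalling, 2 were called higher, against 5.55% of all genes (7 without dexamethasone 1). On the deposited scale 12 were, where 35.9% of all genes were. The 2 were Fst, follistatin, which binds and blocks myostatin and activin (5.73 ± 0.838 to 10.4 ± 1.79, 0.76, adjusted p = 0.0122), and Tgfbr1, a receptor of TGF beta (20.01 ± 2.06 to 34.8 ± 8.1, 0.75, adjusted p = 0.0141).

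The slow-fibre forms of troponin C, I and T rose, while the adult myosins that define fibre type were not called. Tnnc1, the slow troponin C, was at 141, 73.9, 166 and 83.2 nuclear TPM in dexamethasone 1 to 4 and at 18.1, 31, 49.5 and 25.1 in control 1 to 4 (1.89, SE 0.32, adjusted p = 0.007). Tnni1 was at 117, 70.3, 152 and 70.5 against 16.4, 24.5, 50.8 and 20.4 (1.88, adjusted p = 0.00925), and Tnnt1 at 137, 84.7, 154 and 82.3 against 30.3, 33.4, 58.4 and 30.4 (1.56, adjusted p = 0.00584). In all 3 the treated libraries exceeded the controls, dexamethasone 1 and 3 were highest and control 3 was the highest control. These are 3 of the 13 slow-fibre genes tested, of which 0 fell; the deposited scale called 7 higher, and median-of-ratios scaling called 1 lower. Slow myosin Myh7 was at 2.62 ± 1.48 against 1.3 ± 0.51 (adjusted p = 0.196), little above the filter of 1 nuclear TPM.

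The adult fast myosins did not pass the test. Myh4, the main myosin of this muscle, was at 13840, 29360, 13620 and 19300 nuclear TPM after dexamethasone and 16480, 18040, 18630 and 22220 in the control (−0.05, SE 0.24, adjusted p = 0.917), with dexamethasone 2 above and dexamethasone 1 and 3 below all controls. Myh1 (adjusted p = 0.636) and Myh2 (adjusted p = 0.838) overlapped between the groups too. Of 15 fast-fibre genes, 2 were called higher and 1 lower, against 3 and 0 on the deposited scale and 0 and 1 after median-of-ratios scaling. Mybph, a myosin-binding protein (0.98), lost its call without control 1, 2 or 3 (adjusted p from 0.0712 to 0.0916) and after median-of-ratios scaling (adjusted p = 0.0567), and Actn3, the fast-fibre alpha-actinin (0.56), without dexamethasone 4 or control 1, 2, 3 or 4 (adjusted p from 0.0777 to 0.132) and after median-of-ratios scaling (adjusted p = 0.118). The tropomyosin Tpm1 fell (−0.55) and lost its call without control 1, 2, 3 or 4 (adjusted p from 0.0513 to 0.0727) and on the deposited scale (adjusted p = 0.0566). The summed level of the fast list was 210400 to 225200 in treated and 236300 to 241700 in control libraries.

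Calcium handling shifted in a few genes. Sln, sarcolipin, a small inhibitor of the muscle calcium pump, was at 764, 310.1, 931 and 283 nuclear TPM in dexamethasone 1 to 4 and at 88.4, 70.8, 92.2 and 41.5 in control 1 to 4. Every treated library exceeded every control, and dexamethasone 1 and 3 stood above dexamethasone 2 and 4 (2.82, SE 0.40, adjusted p = 0.00276). Casq2, the cardiac and slow calsequestrin that stores calcium, rose from 103 ± 27.4 to 224 ± 65.2 (1.12, adjusted p = 0.014) and Cacng1, a subunit of the muscle calcium channel, from 474 ± 44 to 767 ± 119.8 (0.69, adjusted p = 0.00858, but 0.0662 after median-of-ratios scaling). The slow and cardiac pump Atp2a2 rose too (0.82) and lost its call without control 1, 2 or 4 (adjusted p from 0.0509 to 0.0563). The fast calsequestrin Casq1 fell (−0.44) and lost its call without dexamethasone 3 or control 1, 2, 3 or 4 (adjusted p from 0.0556 to 0.0991) and on the deposited scale (adjusted p = 0.21).

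Genes that muscle is known to switch on when it loses its nerve were among the increases. Of 23 genes of denervation and the neuromuscular junction 10 were called higher and 1 lower, between 9 and 12 higher when 1 library was left out (lower, 0 on the deposited scale and 2 after median-of-ratios scaling), and 13 did not overlap between the groups (17.6% of all genes). Chrng, the acetylcholine receptor subunit of embryonic and denervated muscle, was at 12.5, 10.5, 18.2 and 12.1 nuclear TPM against 2.26, 3.08, 6.32 and 2.65 (1.69, SE 0.25, adjusted p = 0.00344). Chrna1, the alpha subunit, was at 106, 57.2, 120.1 and 67.8 against 28.7, 31.5, 42.2 and 24.7 (1.40, adjusted p = 0.00714). The delta subunit Chrnd (1.27) and the receptor-clustering kinase Musk (1.00) rose as well, while Chrne, the subunit of adult junctions, fell from 25.6 ± 2.62 to 17.7 ± 1.87 (−0.51) and lost that call without dexamethasone 3 or control 1, 2 or 4 (adjusted p from 0.0527 to 0.0843) and on the deposited scale (adjusted p = 0.118). Ncam1, an adhesion molecule that spreads over denervated fibres, was at 21, 22.8, 28.3 and 17 against 4.79, 5.85, 10.2 and 6.03 (1.62, adjusted p = 0.00188). Runx1 (1.38), Myog (1.39) and Gadd45a (1.05), all known to be induced by denervation, were like the genes above called in all 8 fits with 1 library left out, except Chrne.

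Developmental and myogenic genes held increases too. Of 18 satellite cell and myogenesis genes 7 were called higher and 0 lower, and 5 to 9 were higher with 1 library left out and 12 on the deposited scale. Myh8, the perinatal myosin, was at 85.9, 104, 129 and 57.9 nuclear TPM against 13.2, 14.6, 39.9 and 17.4 (2.18, SE 0.33, adjusted p = 0.00431), and embryonic Myh3 at 186, 168, 243 and 139 against 17.7, 42.6, 110.1 and 39.8 (2.05, adjusted p = 0.0169). Control 3 was the highest control in both, and Myh3 lost its call without dexamethasone 3 or control 2 (adjusted p = 0.0513 and 0.0511). The myoblast fusion proteins myomaker, listed under its older symbol Tmem8c (77.2, 52.2, 90.4 and 57.2 against 10.4, 18.4, 36.2 and 16.1, 1.82, adjusted p = 0.00717), and myomixer, listed as Gm7325 (18.2, 13.4, 21.8 and 15 against 4.66, 5.08, 6.64 and 4.6, 1.53, adjusted p = 0.000678), did not overlap between the groups. Cdh15, the cadherin of satellite cells, rose by 0.71 (adjusted p = 0.00449). In a bulk sample a change in the number of cells of a type and a change in RNA per cell cannot be told apart.

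**Figure D2:**
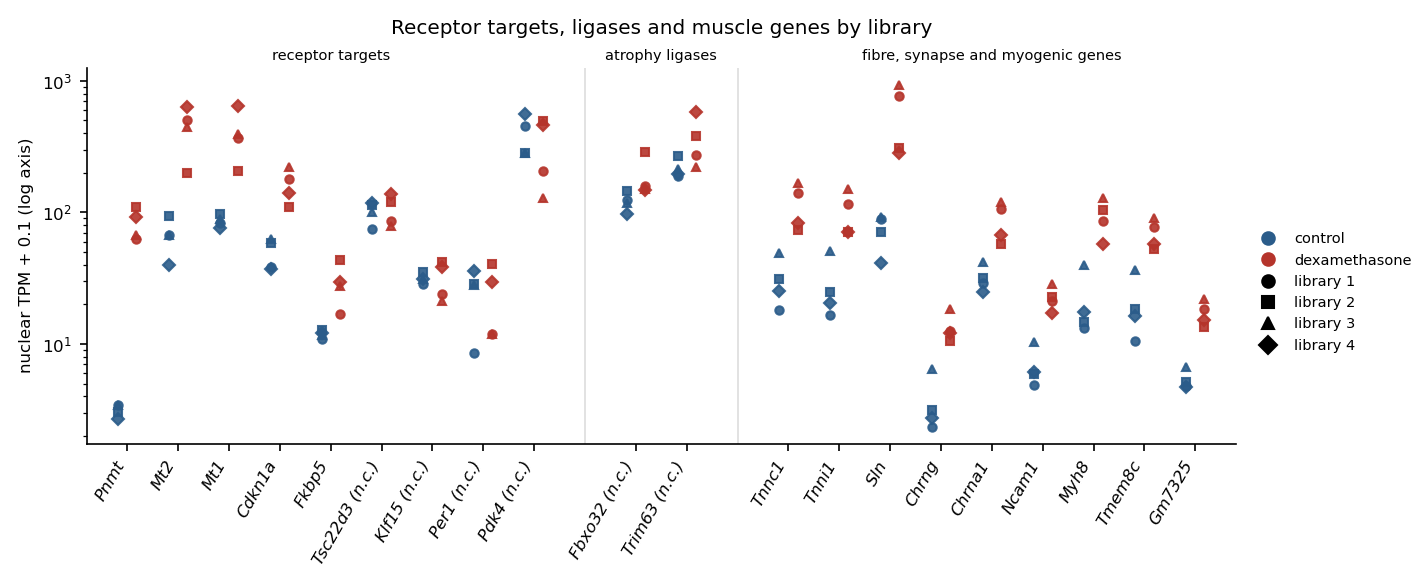
Nuclear TPM plus 0.1 (logarithmic vertical axis) of receptor targets, atrophy ligases and muscle genes in each control (blue) and dexamethasone (red) library; marker shapes give the library number and "n.c." marks genes not called. Pnmt, Mt1 and Mt2 and the genes of the right-hand group separate the groups, while Tsc22d3, Klf15, Per1 and Pdk4 overlap and split dexamethasone 2 and 4 from 1 and 3.

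Acute-phase genes held the largest increase. Lcn2, lipocalin-2 (chr2:32384633-32388252), which binds bacterial iron carriers, was at 132, 206, 188 and 157 nuclear TPM in dexamethasone 1 to 4 and at 1.14, 1.2, 1.73 and 1.02 in control 1 to 4, a log2 change of 6.23 (SE 0.15, adjusted p = 1.22e-08). Orm1, a plasma glycoprotein, was at 40.6, 8.51, 42.9 and 17.4 against 0.675, 1.42, 0.189 and 0.492 (3.86, adjusted p = 0.000972); dexamethasone 1 and 3 were highest. Its near copy Orm2 (18.6, 1.37, 28.4 and 3.31 against 0.386, 0.0885, 0.662 and 0) lost its call without dexamethasone 3 or control 1, 2, 3 or 4 (adjusted p from 0.0544 to 0.0879). Orm2 passed the filter on low values only through the treated libraries and was not tested on the deposited scale. How reads were split between the copies is not given. Serpina3n was at 77.5, 52.8, 118 and 98.2 against 20.3, 15.3, 15.6 and 10.4 (2.39, adjusted p = 0.000593). Haptoglobin, Hp (1.64), Serpina3m (1.69) and Lrg1 (1.46) were also higher. Of 20 acute-phase and IL-6-type genes tested 7 were called higher and 0 lower (6 to 13 with 1 library left out, most without dexamethasone 1, and 11 on the deposited scale). Of the 20 tested, 2 passed the filter on low values only through the treated libraries. The liver fibrinogen genes Fgb and Fgg were at 0 in all 8 libraries.

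Macrophage markers were among the increases. Of 21 tested 9 were called higher and 0 lower, 8 to 10 with 1 library left out and 19 on the deposited scale, with a median of 0.79. The summed level of the 22 listed markers was 2378 to 5805 nuclear TPM in treated and 865 to 1635 in control libraries. Spp1, osteopontin (chr5:104435118-104441050), a secreted phosphoprotein of activated macrophages and other cells, was at 914, 676, 1487 and 383 against 57.4, 28.8, 41.4 and 24.9 (4.38, SE 0.38, adjusted p = 0.000286). The lysozyme Lyz2 was at 2212, 1355, 3343 and 1268 against 532, 419, 603 and 318 (2.05, adjusted p = 0.00368), with reads possibly shared with Lyz1. Gpnmb, a lysosomal glycoprotein, was at 115, 131, 192 and 89.5 against 52.1, 21.3, 22.7 and 11.6 (2.39, adjusted p = 0.00495). In these 3 genes dexamethasone 3 was the highest library and the groups did not overlap. The lipid receptor Trem2 rose from 3.98 ± 1.45 to 12.5 ± 4.53 (1.44, adjusted p = 0.0103), the endotoxin receptor Cd14 by 1.68, the haemoglobin scavenger receptor Cd163 by 1.34 and the growth factor receptor Csf1r by 0.99. The pattern receptors Clec4n (2.95 ± 1.05 to 24.9 ± 11.8, 2.63, adjusted p = 0.00106) and Clec4d (1.54 ± 0.451 to 14.8 ± 7.11, 2.56, adjusted p = 0.000593), found on myeloid cells, were among the 12 largest increases.

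Neutrophil genes did not move together. S100a8, a subunit of calprotectin, was at 119.7, 10.8, 126 and 24.6 nuclear TPM against 9.04, 2.67, 5.81 and 1.98 (3.15, SE 0.72). Dexamethasone 1 and 3 were far above the rest, and the call was lost without dexamethasone 3 or control 2 or 4 (adjusted p from 0.0644 to 0.077). Its partner S100a9 rose from 2.57 ± 0.834 to 9.34 ± 3.87 (1.47, adjusted p = 0.014), and the protease Mmp9 from 1.99 ± 0.709 to 7.6 ± 2.48 (1.51, adjusted p = 0.00263). Retnlg, a resistin-like protein of neutrophils, fell instead: it was at 0.875, 1.21, 1.03 and 0.778 against 59.5, 22.7, 28.3 and 9.15 (−3.70, adjusted p = 0.000905). Of 11 neutrophil markers 5 passed the filter on low values, of which 3 rose and 1 fell (2 to 4 rose with 1 library left out, fewest without dexamethasone 3 or control 2 or 4). Ly6g was at 0 in all 8 libraries, and the summed level was 27.9 to 158.8 in treated and 17.4 to 77.7 in control libraries, which overlap.

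Most interferon-stimulated genes tested fell. Of 31 tested, 24 were called lower and 0 higher, 12 lower without control 2 to 26 without control 3, 19 on the deposited scale and 29 after median-of-ratios scaling, and 31 were lower at an unadjusted p under 0.05. Of the 31 tested, 2 passed the filter on low values only through the controls. The list median was −1.11. The immunity-related GTPase Iigp1 was at 3.68, 5.77, 7.42 and 5.16 nuclear TPM against 145, 76.5, 37.2 and 32.6 (−3.28, SE 0.40, adjusted p = 0.00152), and Tgtp2 of the same family at 1.57, 4.49, 2.76 and 2.51 against 46.2, 21.1, 15.9 and 16.6 (−2.67, adjusted p = 0.00144). Control 1 was the highest library in both, and no treated library reached the lowest control. Gbp2, a guanylate-binding protein, was at 9.75, 9.81, 11.7 and 10.2 against 91.1, 45.4, 28.4 and 23.1 (−1.88, adjusted p = 0.00925). Irf7, a transcription factor that amplifies the interferon response, was at 3.68, 6.09, 5.98 and 4.57 against 23.8, 23.6, 9.78 and 22.4 (−1.72, adjusted p = 0.00433), with control 3 below the other controls. Ifit3 (−1.55), Rsad2 (−1.15) and Bst2 (−0.83), which restrict viruses, were lower in all 8 fits with 1 library left out. Reads of Iigp1, Tgtp1 and Tgtp2 may be shared with near copies.

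A motif bound by interferon-activated factors (GAAA and GAAA with 2 free bases between them) was in 11.96% of the 326 windows of called-lower genes, 2.72% of called-higher genes, 3.02% of all genes tested and 3.44% of all windows. The STAT motif TTCNNNGAA was in 10.7, 5.01, 6.84 and 8.30% of the same sets. For 2 genes that hold the interferon motif, chosen after their values were seen, the 250 bases before the start are printed from RefSeq (GRCm38.p6) with the match in capitals. The printed stretch of Tgtp2 lies at chr11:49064213-49064462 on the minus strand and that of Gbp2 at chr3:142620413-142620662 on the plus strand.
Tgtp2: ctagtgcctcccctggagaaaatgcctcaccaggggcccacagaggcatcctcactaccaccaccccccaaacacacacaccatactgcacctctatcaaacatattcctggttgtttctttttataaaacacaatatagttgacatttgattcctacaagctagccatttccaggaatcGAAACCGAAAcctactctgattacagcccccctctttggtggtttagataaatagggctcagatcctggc
Gbp2: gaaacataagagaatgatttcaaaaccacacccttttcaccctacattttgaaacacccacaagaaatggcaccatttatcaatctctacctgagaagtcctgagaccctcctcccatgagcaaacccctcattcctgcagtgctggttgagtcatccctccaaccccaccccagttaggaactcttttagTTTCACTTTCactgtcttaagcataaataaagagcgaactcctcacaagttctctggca
The matches begin 70 and 59 bases before the start, and in Gbp2 the motif reads on the opposite strand. A STAT match also lies in the Tgtp2 window, beginning 81 bases before the start.

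Genes of antigen presentation fell too. Of 9 MHC class II genes 8 were called lower and 0 higher, in each of the 8 fits with 1 library left out as well (1 passed the filter on low values only through the controls), with a median of −1.54. The deposited scale called 7 of them lower and 1 higher. H2-Aa was at 48.3, 21.6, 50.05 and 41.7 nuclear TPM against 267, 192, 256 and 159 (−2.44, SE 0.26, adjusted p = 0.000669), H2-Eb1 at 48.2, 25.9, 55 and 46.1 against 295, 214, 286 and 191 (−2.49, adjusted p = 0.000309), and the invariant chain Cd74 at 122, 75.7, 129.9 and 125 against 615, 411, 634 and 435 (−2.21, adjusted p = 0.000309). Dexamethasone 2 was the lowest library in each, and the groups were far apart. Ciita, the transactivator of these genes, fell by 1.39 on the log2 scale (adjusted p = 0.00136). Of 14 genes of MHC class I and the immunoproteasome 11 were called lower, among them the peptide transporter Tap1 (10.9 ± 4.57 to 3.37 ± 0.844, −1.40, adjusted p = 0.00728), the immunoproteasome subunit Psmb9 (7.23 ± 2.46 to 2.31 ± 0.234, −1.27, adjusted p = 0.00307) and Nlrc5, the class I transactivator (−1.26). H2-Q7, a non-classical class I gene with close relatives, fell from 19.96 ± 3.1 to 3.54 ± 1.83 (−2.27, adjusted p = 0.000542).

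Several markers of lymphocytes fell, while markers of dendritic cells were mixed. Of 14 T and NK cell markers 6 passed the filter on low values, 4 of them only through the controls, so the calls among them are not counted here. Trbc2, a constant segment of the T cell receptor, was at 0.427, 0.353, 0.273 and 0.488 nuclear TPM against 5.94, 3.27, 4.55 and 3.19 (−1.89, adjusted p = 0.000309), and the granzyme Gzma at 1.55, 0.371, 0.645 and 0.385 against 9.79, 6.25, 3.67 and 3.04 (−1.88, adjusted p = 0.00584). Trbc2 passed the filter only through the controls. Il7r, the interleukin-7 receptor, rose (1.17) and lost its call without dexamethasone 3 or control 2, 3 or 4 (adjusted p from 0.0658 to 0.0832). The summed level of the 14 markers was 7.12 to 14.1 in treated and 15.9 to 36.4 in control libraries. Of 9 B and plasma cell markers 4 passed the filter, 2 of them only through the controls; the summed level of the 9 was 22.5 to 39.0 in treated and 77.1 to 144.8 in control libraries. Igkc, the antibody kappa chain, was at 0.778, 0.306, 0.591 and 0.635 against 48.5, 13.3, 7.3 and 14.2 (−3.46, adjusted p = 0.00156), with control 1 the highest. Igkc passed the filter only through the controls. Ighm fell from 78.9 ± 18.1 to 27.8 ± 6.56 (−1.47, adjusted p = 0.00255). Of 9 dendritic cell markers 5 passed the filter, and 2 were called lower and 0 higher (against 2.99% and 5.55% of all genes). With 1 library left out 2 to 4 were lower and 0 to 1 higher, and the deposited scale called 1 lower and 2 higher. The summed level of the 9 was 23.3 to 32.4 in treated and 22.6 to 33.9 in control libraries, ranges that overlap. Clec9a, a marker of cross-presenting dendritic cells, was at 0.0718, 0.198, 0.115 and 0.205 against 1.86, 1.67, 1.38 and 1.2 (−1.13, adjusted p = 0.000664), all low values, and passed the filter only through the controls.

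Retnla had the largest decrease of the named genes, and the summed level of eosinophil and mast cell markers fell. Retnla (chr16:48842551-48844461), a resistin-like protein of alternatively activated macrophages and other cells, was at 6.72, 1.5, 2.21 and 4.97 nuclear TPM in dexamethasone 1 to 4 and at 518, 226, 349 and 214 in control 1 to 4, a log2 change of −6.13 (SE 0.37, adjusted p = 2.50e-05). Ear2, an eosinophil-associated ribonuclease, was at 6.42, 1.7, 4.72 and 2.82 against 61.6, 29.8, 39.8 and 23.5 (−3.03, adjusted p = 0.000905). The eotaxin receptor Ccr3 was at 0.0361, 0.0249, 0.25 and 0.062 against 5.48, 2.7, 3.13 and 1.12 (−1.80, adjusted p = 0.00431), and the lipoxygenase Alox15 at 0, 0.0332, 0.0513 and 0.193 against 14.8, 6.2, 7.97 and 4.72 (−3.04, adjusted p = 0.000286). In both genes 3 of the 4 treated libraries lay under the floor of 3 reads for a gene 2 kb long. All treated values of both were under 1 nuclear TPM, so both passed the filter on low values only through the controls. Rnase2a, another ribonuclease of this family, fell from 9.37 ± 5.04 to 0.222 ± 0.116 (−2.98, adjusted p = 0.000309), with close relatives that may share reads. It too passed the filter only through the controls. Of 12 eosinophil and mast cell markers 8 passed the filter, 2 of them only through the controls. The summed level of the 12 listed was 17.6 to 30.7 in treated and 56.2 to 105.7 in control libraries, and Epx was at 0 in all 8. Siglecf and Tpsb2, also on this list, were called lower. Siglecf lost its call without dexamethasone 2, 3 or 4 or control 2 or 3 (adjusted p from 0.0548 to 0.0864). Tpsb2 lost its call without dexamethasone 3 or control 1, 3 or 4 (adjusted p from 0.0548 to 0.0728).

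**Figure D3:**
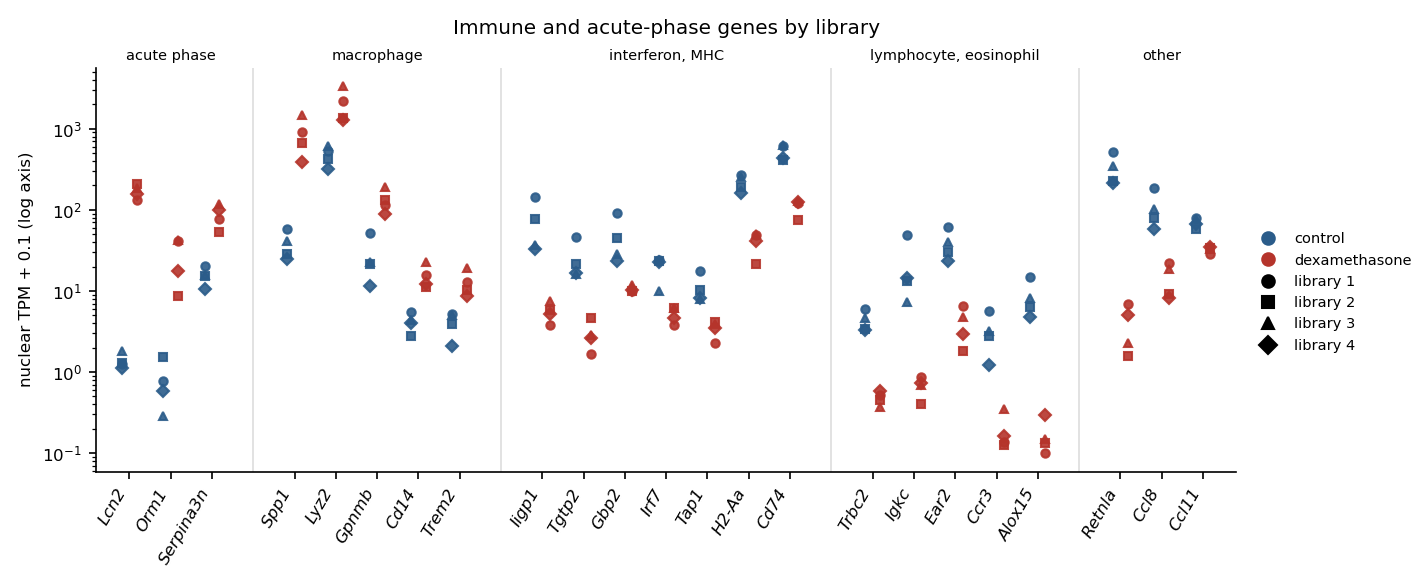
Nuclear TPM plus 0.1 (logarithmic vertical axis) of immune and acute-phase genes in each control (blue) and dexamethasone (red) library; marker shapes give the library number. The genes plotted are a selection. Those under acute phase and macrophage are higher in all 4 treated libraries. Those under interferon and MHC and under lymphocyte and eosinophil are lower in all 4. Trbc2, Igkc, Ccr3 and Alox15 passed the filter on low values only through the controls.

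Chemokines went both ways. Of 24 chemokine and cytokine genes tested 4 rose and 4 fell (1 rose without control 2, 8 on the deposited scale). Cxcl9, an interferon-induced attractant of T cells, was at 1.12, 0.972, 1.58 and 1.21 nuclear TPM against 39.4, 16.9, 12.9 and 10.2 (−3.05, SE 0.33, adjusted p = 0.000689). Ccl8 was at 21.8, 9.09, 18.3 and 8.07 against 186, 80.2, 104 and 57.7 (−2.79, adjusted p = 0.00242). Ccl11, eotaxin, the ligand of Ccr3, fell from 70.2 ± 9.35 to 32.5 ± 2.67 (−1.08, adjusted p = 0.000678), and Ccl5 from 6.79 ± 3 to 1 ± 0.225 (−1.88, adjusted p = 0.00197). On the other side, besides Spp1, Ccl3 rose from 0.818 ± 0.403 to 5.7 ± 3.29 (1.74) and lost its call without control 2 (adjusted p = 0.054). The monocyte attractant Ccl2 (1.43) lost its call without dexamethasone 2 or 3 or control 2, 3 or 4 (adjusted p from 0.0524 to 0.0873), and the macrophage growth factor Csf1 (0.92) without dexamethasone 3 or control 2 or 4 (adjusted p from 0.0508 to 0.0667). Of 18 complement genes 2 rose and 4 fell, with 1 to 4 rising and 2 to 4 falling when 1 library was left out (fewest rising without control 2 or 4, fewest falling without control 1 or 3); on the deposited scale 9 rose and 2 fell. C3, the central component, fell from 79.2 ± 26.9 to 25.1 ± 4.28 (−1.58, adjusted p = 0.00164) and factor B, Cfb, from 21.2 ± 5.31 to 7.12 ± 1.35 (−1.44, adjusted p = 0.0015), while the receptor C5ar1 rose from 3.31 ± 0.812 to 11 ± 4.5 (1.43, adjusted p = 0.00645).

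Matrix genes were called in both directions. Col6a5, a chain of collagen VI, was at 0.17, 0.329, 0.147 and 0.337 nuclear TPM in dexamethasone 1 to 4 and at 24, 9.36, 10.9 and 11.2 in control 1 to 4 (−3.49, SE 0.24, adjusted p = 7.18e-05). The related chain Col6a6 was at 1.5, 2.61, 2.48 and 2.74 against 9.71, 6.99, 9.03 and 9.02 (−1.55, adjusted p = 0.000542). Both genes' groups lay well apart, and Col6a5 passed the filter only through the controls. The third called member among 19 basement membrane and collagen VI genes, Col15a1 (−0.74), lost its call without control 1, 3 or 4 (adjusted p from 0.0505 to 0.0626) and on the deposited scale (adjusted p = 0.0554). Of these 19 the deposited scale called 2 lower and 2 higher. Among 25 genes of fibrillar collagens and crosslinking 3 were called higher and 0 lower (1 without control 2 or 4, 7 without dexamethasone 1, 11 on the deposited scale); P4ha3, a subunit of collagen prolyl hydroxylase, rose from 1.58 ± 0.44 to 7.08 ± 3.64 (1.57, adjusted p = 0.00574), the proteoglycan Bgn (1.00) lost its call without control 2 or 4 (adjusted p = 0.0589 and 0.0545) and Loxl1 (0.86) without dexamethasone 3 or control 1, 2 or 4 (adjusted p from 0.0577 to 0.0908). The metalloprotease inhibitor Timp1 rose from 18.9 ± 3.77 to 64.8 ± 32.6 (1.62, adjusted p = 0.0088) and the protease Mmp19 from 8.15 ± 3.85 to 25.7 ± 9.5 (1.57, adjusted p = 0.0116), while Adamts5, which cleaves proteoglycans, fell from 10.9 ± 1.01 to 6.52 ± 0.725 (−0.66, adjusted p = 0.00714). Prg4, lubricin, rose from 3.71 ± 1.01 to 26.6 ± 9.55 (2.51, adjusted p = 0.000492).

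The series singles out Cyr61, a secreted matrix protein of the CCN family, by an siRNA experiment. Cyr61 was at 61.1, 107, 61.5 and 73.2 nuclear TPM after dexamethasone and at 40.1, 47.2, 43.8 and 33.6 in the control. Every treated library exceeded every control (0.83, SE 0.18, adjusted p = 0.0193), and the call was lost without control 1 or 4 (adjusted p = 0.0522 and 0.0634). Of 18 CCN and YAP/TAZ target genes 4 were called higher and 0 lower, 1 to 8 with 1 library left out (1 without control 4, 8 without dexamethasone 1) and 9 on the deposited scale. The family member Wisp2 was at 10.6, 9.27, 17.2 and 7.41 against 2.45, 2.82, 3.77 and 3.13 (1.53, adjusted p = 0.00279). Wisp1 (1.30) lost its call without control 1, 2 or 4 (adjusted p from 0.0622 to 0.0693) and the stretch-responsive Ankrd1 (1.27) without control 4 (adjusted p = 0.0531).

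Amino acid metabolism was raised in few genes, by much in Gnmt. Gnmt, glycine N-methyltransferase, which consumes S-adenosylmethionine, was at 30.1, 38.3, 29.9 and 33 nuclear TPM against 1.3, 1.65, 1.28 and 2.53 (3.67, SE 0.16, adjusted p = 1.07e-06). The groups lay far apart. Ahcy, which hydrolyses the product of such methylations, rose by 0.68 (adjusted p = 0.00547), and Phgdh, which starts serine synthesis, from 2.88 ± 0.266 to 6.39 ± 1.6 (0.91, adjusted p = 0.00655). They belong to 6 of 28 amino acid and one-carbon genes called higher, with 0 lower (3 without control 2 or 4, 11 on the deposited scale). Psat1, the next enzyme of serine synthesis, lost its call without control 2 or 4 (adjusted p = 0.0598 and 0.065). The leucine transporter Slc7a5 was at 5.72, 7.8, 9.09 and 7.75 against 2.46, 2.44, 3.6 and 2.57 (1.19, adjusted p = 0.00185). In polyamine synthesis Srm, spermidine synthase, rose from 14.5 ± 1.62 to 24.1 ± 3.72 (0.69, adjusted p = 0.0095), while Amd1, which makes the aminopropyl donor, fell from 792 ± 118 to 429 ± 84.6 (−0.89, adjusted p = 0.00852). Smox, spermine oxidase, fell too (−0.80) and lost its call without control 1, 3 or 4 (adjusted p from 0.0531 to 0.0656) and on the deposited scale (adjusted p = 0.0539).

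Subunits of oxidative phosphorylation were called lower where they were called. Of 50 nuclear-encoded subunits of oxidative phosphorylation 8 were called lower and 0 higher, 32 were lower at an unadjusted p under 0.05, and the median was −0.31; the count was 25 without dexamethasone 1, 1 without control 1, 2 or 4, 1 on the deposited scale and 4 after median-of-ratios scaling. Cox7a1, a muscle form of a complex IV subunit, was at 1311, 899, 1070 and 1119 nuclear TPM against 1806, 1852, 1538 and 1696 (−0.66, SE 0.13, adjusted p = 0.0123). It was the 1 of the 8 called in all 8 fits with 1 library left out. Of the 13 mitochondrially encoded mRNAs 7 were called lower and 0 higher, with a median of −0.61, 12 without dexamethasone 1, 0 without dexamethasone 4 or control 1, 2 or 4, and 2 after median-of-ratios scaling. mt-Nd5 fell from 27470 ± 2421 to 17590 ± 1535 (−0.64, adjusted p = 0.0184) and lost its call without dexamethasone 4 or control 1, 2 or 4 (adjusted p from 0.0516 to 0.076). Of 22 genes of mitochondrial transcription and RNA stability 1 was called lower, against 2.99% of all genes (4 higher on the deposited scale, 3 lower after median-of-ratios scaling). It was the terminator-family gene Mterf2 (−0.47), which lost its call without dexamethasone 4 or control 1, 2 or 4 (adjusted p from 0.0763 to 0.0996) and on the deposited scale (adjusted p = 0.143).

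Glycolysis gave 3 calls. Pgam2, muscle phosphoglycerate mutase, was at 4522, 3159, 4104 and 4325 nuclear TPM against 6852, 5905, 6585 and 7079 (−0.72, SE 0.14, adjusted p = 0.0113), and Pkm, pyruvate kinase, fell from 5070 ± 247 to 3518 ± 279 (−0.53), a call lost without control 1, 2 or 4 (adjusted p from 0.053 to 0.0614). The ubiquitous mutase Pgam1 rose (44.2 ± 6.37 to 68.5 ± 15.8, 0.61) and lost its call without dexamethasone 3 or 4 or control 1, 2, 3 or 4 (adjusted p from 0.0518 to 0.122) and after median-of-ratios scaling (adjusted p = 0.0781). These were the called members of 16 tested; without dexamethasone 1 there were 5 lower, and the deposited scale called 2 higher and median-of-ratios scaling 0 higher. Ppp1r3c, which targets a phosphatase to glycogen, fell from 227 ± 35 to 113 ± 40.4 (−1.06) and lost its call without control 1, 2 or 3 (adjusted p from 0.0529 to 0.0674). It was the 1 gene called of 26 for glucose uptake, glycogen and fuel choice, against 2.99% of all genes called lower. Of these 26 the deposited scale called 5 higher and median-of-ratios scaling 2 lower. Among 31 fatty acid genes Hadh, an enzyme of beta oxidation, fell from 112 ± 7.97 to 78.7 ± 4.11 (−0.50, adjusted p = 0.00857; deposited scale 0.0906), and Acot1, an acyl-CoA thioesterase, rose from 0.832 ± 0.439 to 2.83 ± 0.959 (1.06, adjusted p = 0.0132). Angptl4, an inhibitor of lipoprotein lipase and a receptor target, rose (0.85) and lost its call without dexamethasone 2 or 3 or control 1, 2, 3 or 4 (adjusted p from 0.0631 to 0.1) and after median-of-ratios scaling (adjusted p = 0.0562).

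Counts for protein turnover depended on the scale. Of 31 proteasome genes 4 were called higher and 0 lower on the nuclear scale, where 5.55% and 2.99% of all genes were. On the deposited scale 29 were called higher, where 35.9% of all genes were, and after median-of-ratios scaling 0 were. The nuclear count was 0 without control 4. Psmd8, a regulatory subunit, changed most of these (179.7 ± 20.3 to 263 ± 25.7, 0.55) and lost its call without control 4 (adjusted p = 0.0501) and after median-of-ratios scaling (adjusted p = 0.0886). Of 30 autophagy and lysosome genes 4 were called higher and 0 lower, 22 higher on the deposited scale and 1 after median-of-ratios scaling (on the nuclear scale 1 without control 2 or 4); the cathepsin Ctsl was at 507, 392, 596 and 450.4 nuclear TPM against 281, 248, 249.9 and 209 (0.97, SE 0.14, adjusted p = 0.00313), the 1 that passed on all 3 scales. Of 21 chaperones and unfolded-protein genes of the endoplasmic reticulum 9 were called higher and 0 lower, 2 without control 4, 13 without dexamethasone 1, 19 on the deposited scale and 4 after median-of-ratios scaling. The chaperone Calr was at 221, 235, 299 and 232 against 151, 142, 171 and 155 (0.66, adjusted p = 0.00686) and Hspa5 at 167, 160.3, 242 and 184 against 118, 122, 120.2 and 117 (0.64, adjusted p = 0.0137). Of 38 ribosomal protein genes 1 was called, Rpl10, which lost its call without dexamethasone 1, 3 or 4 or control 1, 2, 3 or 4 (adjusted p from 0.051 to 0.106) and after median-of-ratios scaling (adjusted p = 0.142); 34 were called on the deposited scale, 0 after median-of-ratios scaling and 17 on the nuclear scale without dexamethasone 2.

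**Figure D4:**
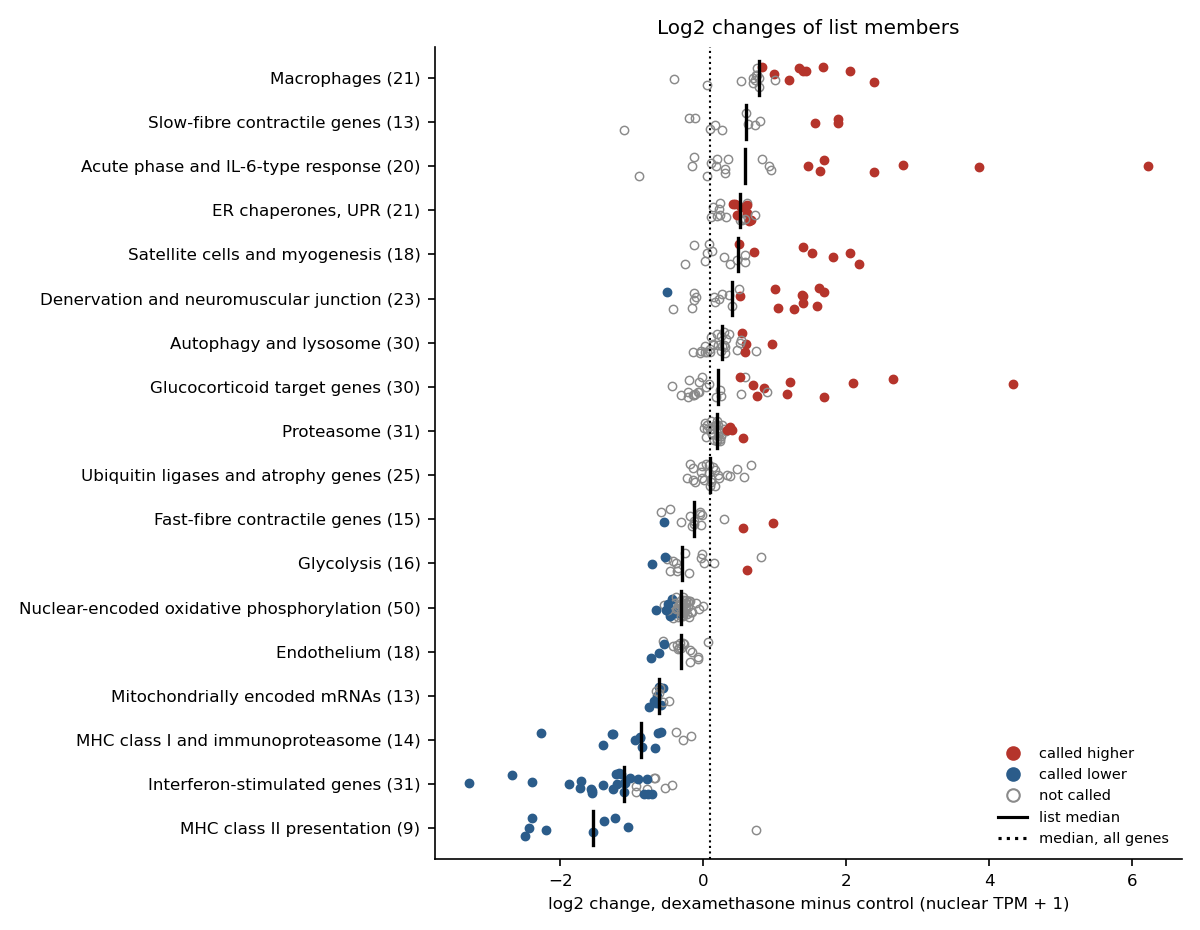
Log2 change of nuclear TPM plus 1 (horizontal axis, dexamethasone minus control) for the tested members of 18 gene lists, with the number tested in brackets; filled points are called higher (red) or lower (blue), open points are not called, solid bars are list medians and the dotted line is the median of all genes at 0.10. Medians run from −1.54 for MHC class II genes to 0.79 for macrophage markers, and 0 of 25 atrophy genes are filled.

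Stress and redox genes held some clear increases. Hmox1, haem oxygenase, was at 57.3, 68.3, 93.8 and 56.8 nuclear TPM against 27.6, 21.8, 26.5 and 17.4 (1.52, SE 0.19, adjusted p = 0.00144). Gpx3, the secreted glutathione peroxidase, was at 578, 865, 668 and 556 against 219, 214, 261 and 244 (1.49, adjusted p = 0.000424). Neither overlapped between the groups. Gsta4, a glutathione transferase that clears lipid aldehydes, fell from 35.5 ± 2.4 to 22.8 ± 3.17 (−0.62, adjusted p = 0.00852). Of 23 redox genes 4 rose and 1 fell (7 rose without dexamethasone 1, 14 on the deposited scale; after median-of-ratios scaling 2 fell). Of 18 p53 target genes 6 were called higher, led by Cdkn1a, with 2 without control 4 and 7 without dexamethasone 1. Eda2r (14.6 ± 4.41 to 31.8 ± 9.14, 1.07) lost its call without dexamethasone 3 or control 1 or 4 (adjusted p from 0.0536 to 0.0607). Clock genes gave 2 calls of 19, both higher, against 5.55% of all genes; there were 0 without dexamethasone 4 or any 1 control, 3 without dexamethasone 1, 8 on the deposited scale, and 1 higher and 1 lower after median-of-ratios scaling. Cry2, a repressor of the clock (0.80), lost its call without dexamethasone 2 or 4 or control 1, 2, 3 or 4 (adjusted p from 0.0669 to 0.117). Of 18 immediate-early genes 4 were called higher (1 without dexamethasone 4 or control 1, 2 or 4, 9 without dexamethasone 1, 9 on the deposited scale). Of 22 heat shock proteins 2 were called higher (1 without dexamethasone 4 or control 1, 2 or 4, 6 without dexamethasone 1 or 2, 18 on the deposited scale). Of 16 ATF4 targets 3 were called higher (2 without control 2 or 4, 5 without dexamethasone 1, 9 on the deposited scale). Of 17 amino acid transporters 3 were called higher (8 without dexamethasone 1, 1 without any 1 of the other 7 libraries, 8 on the deposited scale). Each of these lists had 0 lower, and 5.55% of all genes tested were called higher. Fndc5, the precursor of irisin, fell from 109.8 ± 10.9 to 63.7 ± 8.26 (−0.78, adjusted p = 0.0034).

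Markers of the other cells of muscle gave mixed counts. Of 18 endothelial genes 3 were called lower and 0 higher, 9 lower after median-of-ratios scaling and 1 on the deposited scale, 1 without dexamethasone 3 or control 2, 3 or 4 and 5 without dexamethasone 1. The summed level of these markers was 686.6 to 950.2 in treated and 999.9 to 1256 in control libraries. Cldn5, an endothelial tight junction protein, was at 34.1, 31.1, 30.3 and 35.3 nuclear TPM against 59.3, 51.8, 50.6 and 42.6 (−0.62, adjusted p = 0.00939). Tendon genes split, with the transcription factor Scx up from 14.7 ± 3.68 to 46.6 ± 19.1 (1.54, adjusted p = 0.00925) and the matrix genes Kera (6.25 ± 1.51 to 1.18 ± 0.444, −1.73, adjusted p = 0.000869) and Tnmd (11.7 ± 3.12 to 3.85 ± 0.686, −1.36, adjusted p = 0.00293) down. The summed level of the 10 tendon markers was 211.6 to 286.5 in treated and 160.8 to 257.2 in control libraries. The lipid droplet protein Cidec rose from 2.5 ± 0.975 to 7.56 ± 1.73 (1.31, adjusted p = 0.00574), 1 of 3 adipocyte genes of 9 that were called higher. The list median was 0.125, against 0.10 over all genes. The summed level of the 11 adipocyte markers was 1968 to 3260 in treated and 2531 to 3417 in control libraries, ranges that overlap. In smooth muscle and pericyte genes (14 tested), Schwann cell genes (10) and red cell genes (6) limma called 0 in either direction, and so did the fit after median-of-ratios scaling, while the deposited scale called 8 smooth muscle genes and 1 Schwann cell gene higher; 4 of the smooth muscle genes were higher at an unadjusted p under 0.05, and 0 of the others were higher or lower. The part of changing cell numbers in any of these results was not tested.

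The dexamethasone response was set against the LLC response for 12 genes chosen for this purpose, each response measured against its own controls and with no shared library. In the interaction term of limma over 16 libraries 544 of 13209 genes (4.12%) differed, 311 with the dexamethasone response above and 233 below (587 above without dexamethasone 1, 166 without control 2 of dexamethasone, and 161 to 328 below with 1 library left out). Lcn2 changed by 6.23 after dexamethasone and by 0.77 (SE 0.39) under LLC, a difference of 5.46 (SE 0.45, adjusted p = 6.17e-06). Spp1 differed by 5.40 (SE 0.64, adjusted p = 0.000215), with −1.03 under LLC, and Retnla by −5.47 (SE 0.70, adjusted p = 0.000433), with −0.66 under LLC. Irf7 differed by −1.88 (SE 0.37, adjusted p = 0.00805), with an LLC change of 0.15. These 4 differences passed on all 3 scales and without any 1 library. The 2 control groups did not start level for all of them. Retnla was at 326.9 ± 141.1 nuclear TPM in the dexamethasone control and 29.25 ± 15.64 in the LLC control, and Spp1 at 38.1 and 15.9. Irf7 was at 9.41 ± 1.9 in the LLC control, below each dexamethasone control given above, while Lcn2 was at 1.27 and 1.37. The part of these control levels in the differences was not tested.

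Klf15 was the remaining gene that differed. It rose under LLC, from 26.3 ± 2.41 to 53.6 ± 10.3 nuclear TPM (0.98, SE 0.13, adjusted p = 0.00929), and was not called after the glucocorticoid itself; the difference was −1.04 (SE 0.26, adjusted p = 0.0327), up to 0.0752 with 1 library left out and 0.126 on the deposited scale. Fkbp5 rose in both conditions, by 1.17 and 1.78 (SE 0.36, adjusted p = 0.0272), and the responses differed by −0.61 (SE 0.46, adjusted p = 0.56). For Fbxo32 the difference was −0.09 (SE 0.42, adjusted p = 0.951) and for Trim63 0.14 (SE 0.37, adjusted p = 0.909). Cyr61, Pdk4, Mt2 and Sln did not pass either (adjusted p = 0.661, 0.606, 0.553 and 0.132), which does not show that their responses were alike; Sln passed on the deposited scale (adjusted p = 0.0232).

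**Figure D5:**
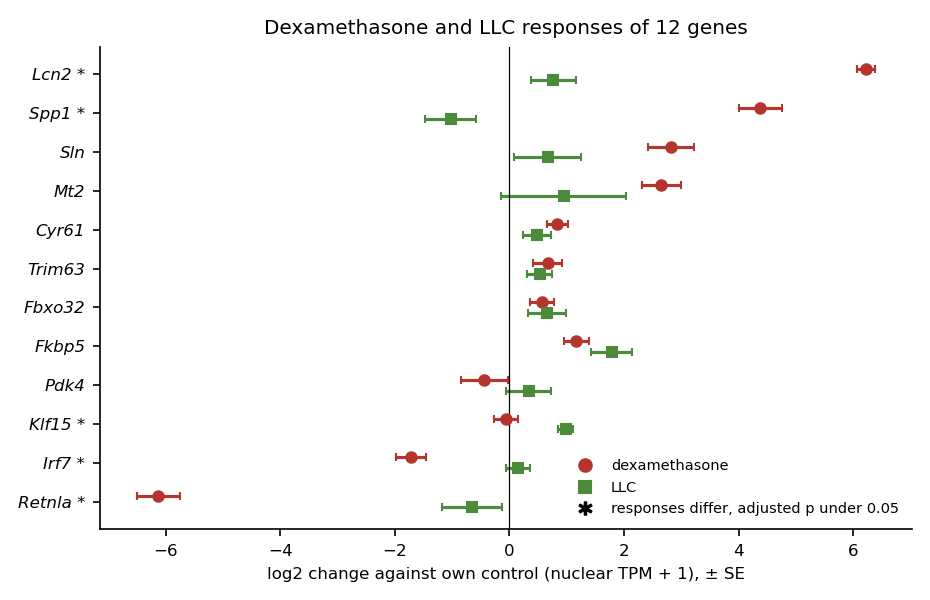
Log2 change against the condition's own control (horizontal axis, nuclear TPM plus 1, bars ± SE) after dexamethasone (red circles) and under LLC (green squares) for 12 genes; an asterisk marks responses that differ at an adjusted p under 0.05. Lcn2, Spp1, Retnla and Irf7 lie far apart, Klf15 is higher under LLC, and Fbxo32 and Trim63 lie close together.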

How the data were processed

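RNA was extracted with Trizol and sequenced as stranded mRNA libraries on an Illumina NovaSeq, per the labels' protocols; the genome build was mm10, per the submitters' processing notes. The authors deposited TPM values (length-corrected transcript abundance) for 47643 genes in 30 libraries, each summing to 1000000; no source used here names the aligner, the counting tool or the total reads, and about 82% of low values were whole multiples of a read within a tolerance of 0.05. Values of the 8 libraries were rescaled without the 37 mitochondrial rows. Genes with at least 1 nuclear TPM in at least 4 of the 8 were tested on log2(value + 1) with limma 3.58.1 (variance trend, R 4.3.3), two-sided, with Benjamini-Hochberg adjustment over all genes; LLC was compared by the interaction over 16 libraries. The script was tested on simulated data. Genes named are the 12 largest non-overlapping called increases and decreases with a mean of at least 5 nuclear TPM, a set of 19 always named, up to 4 called genes per direction of 55 lists (for a list without calls the gene with the smallest p) and the 12 genes compared with LLC. Another 43 genes were added after their values were seen: those of the closing section, and in the results Acta1, Tnnt3, Anxa1, Chrnd, Musk, Runx1, Myog, Cdh15, Hp, Serpina3m, Lrg1, Cd163, Csf1r, Ifit3, Rsad2, Bst2, Ciita and Ahcy. The comparison and the lists were chosen with earlier results of these data known. Gene coordinates are from GENCODE vM21 and promoter windows from RefSeq (GRCm38.p6), matched by symbol for 9776 of the genes tested. The labels state no pairing by replicate number, and the main fit used none. Alternatives were other scalings, pseudocounts, filters, variance models, the replicate block, stricter thresholds and leaving out each library. Some genes that the naming rule picks are not reported here.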

Additional observations from a re-analysis of the deposited data

Results flagged for a closer look

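Single libraries stood apart from the other 3 of their group for 41 of 480 gene and group pairs examined, by a gap to the nearest library, divided by the group's range, above Dixon's critical value for 4 samples; chance flags about 1 in 20. Among treated libraries dexamethasone 3 was high for Igf1 (0.965 of the range), Gatm (0.833), Srm (0.860), Pgam1 (0.957), Creld2 (0.881), C3ar1 (0.858), Loxl1 (0.830), Mmp9 (0.944), Ccr3 (0.835), Mfap5 (0.841), Musk (0.887), Bst2 (0.873) and Msr1 (0.881). Dexamethasone 2 was high for Fbxo32 (0.924), H2-Q7 (0.987), Timp4 (0.938) and Vwf (0.838) and low for Cd74 (0.847). Dexamethasone 1 was high for Gsta4 (0.913) and low for Mstn (0.888) and Smox (0.921), and dexamethasone 4 was high for Ddit4 (0.907).

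Among controls, control 3 was high for Hsp90ab1 (0.858), Tnnt1 (0.890), Atp2a2 (0.834), Myh8 (0.844), Slc7a5 (0.889), Cd209a (0.853), Des (0.830) and Tnc (0.906) and low for Irf7 (0.904). Control 1 was high for Col6a5 (0.876), Igkc (0.833), C3 (0.907), Cfb (0.925) and Socs1 (0.831) and low for Actn3 (0.834). Control 2 was high for Scd1 (0.890) and Thrsp (0.904) and low for Smox (0.874), and control 4 was high for Mybph (0.838).

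For 5 of the 12 genes chosen for the comparison with LLC the 2 responses differed in the interaction test, against 4.12% of all 13209 genes. The log2 differences were 5.46 for Lcn2, 5.40 for Spp1, −5.47 for Retnla, −1.88 for Irf7 and −1.04 for Klf15. Klf15 did not pass on the deposited scale (adjusted p = 0.126), and its adjusted p rose to 0.0752 with 1 library left out. Because the 12 genes were chosen, their count is no rate for other genes.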

How the results depend on the processing

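Under the alternative settings the counts moved more than the directions of the named genes. The main fit called 720 genes higher and 388 lower. The deposited scale called 4290 and 180, which held 671 and 179 of the main calls. The counts were 561 and 640 after median-of-ratios scaling, 595 and 757 after quantile normalization, 4535 and 1255 with array weights and 1243 and 496 with all groups in 1 fit. In the main fit 187 and 150 passed at an adjusted p under 0.01, and 194 and 111 had an absolute log2 change of at least 1. Estimation of the array weights stopped short of its convergence tolerance. With 1 library left out, 288 to 1941 genes were higher and 204 to 542 lower. The dexamethasone response lay above the LLC response for 2533 genes and below for 104 on the deposited scale, and for 166 to 587 and 161 to 328 with 1 library left out. The mitochondrial share differed by −9.50 to −12.0 percentage points with 1 library left out. Of 240 named genes, 32 lost their call after median-of-ratios scaling and 16 on the deposited scale. With all groups in 1 fit 46 lost it, without the filter on low values 44, and with 1 library left out 3 to 69 (most without control 4). The only named gene with a called reversal in these settings was Ddit4, at 0.99 with array weights; the cause was not tested.

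With the replicate number as a block 1129 genes were higher and 499 lower. The labels state no pairing by number. The correlations of same-numbered deviations were 0.342, 0.022, 0.313 and 0.467, and not every library correlated best with its own number. Control 1 correlated with dexamethasone 1 to 4 at 0.342, −0.392, 0.357 and −0.336, and control 4 at −0.424, 0.528, −0.532 and 0.467. Whether libraries of the 2 groups were paired or shared a batch was not tested.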

Other observations

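The genes given here lie outside the lists and were chosen after their values were seen, for being called in all 8 fits with 1 library left out and on all 3 scales, so they add no support to the results above. Msr1, a scavenger receptor of macrophages, was at 9.11, 8.94, 20.4 and 7.59 nuclear TPM in dexamethasone 1 to 4 and at 1.79, 1.37, 2.18 and 1.32 in control 1 to 4 (2.14, adjusted p = 0.00136). Acp5, the acid phosphatase of osteoclasts and macrophages, was at 56.4, 35.2, 82.6 and 35.4 against 19.3, 9.06, 13.9 and 9.08 (1.92, adjusted p = 0.00482). Neither gene overlapped between the groups. The inhibitory receptor Lilrb4a (1.70), the chemokine Pf4 (1.69), the coagulation factor subunit F13a1 (1.57), the lipid carrier Apoe (1.44) and the scavenger receptor Stab1 (1.14) rose as well, as did the lysosomal genes Gusb (1.06) and Grn (0.86). Il1rn, the interleukin-1 receptor antagonist, rose from 2.26 ± 1.38 to 18.6 ± 11.6 nuclear TPM (2.48, adjusted p = 0.00619).

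Tnnt2, the cardiac and embryonic troponin T, was at 63.8, 44.9, 82.2 and 42.5 nuclear TPM against 7.74, 12.3, 21.7 and 9.84 (2.14, adjusted p = 0.00255). Its treated libraries all exceeded the controls. The myosin light chain Myl6b (1.51) and the tubulins Tubb2b (1.42) and Tubb6 (1.29) rose too, and so did tenascin C, Tnc (9.54 ± 2.92 to 48.7 ± 27, 2.13), and mesothelin, Msln (3.57 ± 1.97 to 21.6 ± 3.96, 2.39). Among the decreases were Tfrc, the transferrin receptor (205 ± 45.4 to 78.2 ± 31.7, −1.44), Nrep (−1.41), the apelin receptor Aplnr (−1.33), Socs1, an inhibitor of cytokine signalling (−1.48), and the nucleic acid sensor Zbp1 (−1.69). The mitochondrial genes Ckmt2 (−0.72), Coq10a (−0.73), Oxct1 (−0.75), which starts the use of ketone bodies, and Dlat (−0.57), a subunit of pyruvate dehydrogenase, fell.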
